A study of Mus musculus with 2 samples.

Results

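The mitogen-activated protein (MAP) kinase cascade and the calcium/calmodulin-dependent (CaM) kinases were examined for their level and for their allelic balance in F123 mouse embryonic stem cells (mESCs). Members were all genes whose symbol begins with Mapk, Map2k, Map3k or Map4k followed by a digit, or with Camk, which gave 63 genes of 29833 in the table. F123 is a male line from a CAST by S129 cross, in which the CAST chromosomes came from the father, so reads over variant bases can be told apart as paternal (CAST) or maternal (S129). No other genetic change and no treatment is stated for the cells, which were taken off their fibroblast feeder layer for at least 2 passages, with the LIF concentration raised, and harvested after about 48 h. Total RNA was sequenced in 2 biological replicates of this 1 line, and parent of origin and strain cannot be told apart because only 1 direction of the cross was measured.

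MAP kinases are the last step of a relay in which a MAP3 kinase phosphorylates a MAP2 kinase, which in turn phosphorylates a MAP kinase, with MAP4 kinases acting upstream in some branches. The terminal kinases are grouped as ERK, JNK and p38, and scaffold proteins hold selected kinases together. In mESCs, signaling through the ERK branch is known for promoting exit from the naive state, and its inhibition is used to keep cells naive. CaM kinases are activated by calmodulin when calcium rises, and CaMKK phosphorylates and activates CaMK1 and CaMK4.

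Each gene has 1 record per transcript biotype in the table, and the 2 records of a gene, protein-coding and long noncoding (lncRNA), can share reads. The 63 genes had 102 records, 62 protein-coding and 40 lncRNA, and 39 genes had both. Levels are given as TPM, reads scaled by transcript length and library size, over exons and introns of the record with both replicates pooled, and a record was called expressed at a TPM of at least 1. A record's CAST and S129 reads were compared with a two-sided exact binomial test with Benjamini-Hochberg adjustment over all 18632 records with allelic reads. A record had allele-specific expression (ASE) when its absolute log2 fold change (CAST over S129) was at least 1, its adjusted p at most 0.05 and its TPM at least 1. Because the replicates were summed before deposit, no spread between replicates could be computed. Intervals (exact Clopper-Pearson, 95%) and standard errors (SE) of the allelic reads cover counting error only, and 1 read may be counted at more than 1 variant.

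All 12 mESC markers were at a TPM of at least 10 (12.1 to 483). Of 10 fibroblast markers, 3 reached a TPM of 1, the highest being Thy1 at 7.0 TPM, and the list summed to 12.8 TPM against 2125 TPM for the mESC list. Of 10 markers of early differentiation, a list that includes Camk2a, 7 reached a TPM of 1, with Sox17 at 21.4 and Sox1 at 10.3. The part of these other cells in the levels below was not tested.

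Of the 63 member genes, 49 were expressed, and 41 of these could be tested for allelic balance in 65 records. ASE was found in 6 of the 65 records (9.23%), belonging to 5 genes, where 14.1% of all tested records had ASE. CAST was higher in 5 records (8.33% of all tested records were called in this direction) and S129 in 1 (5.78%). The genes were Camk1d, Camkk2, Mapk13 and Mapk8ip3 on the CAST side and Map3k10 on the S129 side. No member record with reads had them from 1 allele only. These 5 genes hold 1 p38 kinase, 1 MAP3 kinase, 1 JNK scaffold and 2 CaM kinases. The MAP2 kinases (11 tested records), MAP4 kinases (9), JNK (4), ERK1/2 (3), ERK5 (2) and atypical ERK (2) had no ASE record. Whether such small groups differ from the 14.1% of all tested records was not tested. When a spread beyond counting error was assumed (beta-binomial, correlation 0.05 between the reads of a gene), 2 of the 6 records passed, those of Camk1d and Mapk8ip3.

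The start regions of the 5 ASE genes are shown because they are the stretches next to which the imbalanced transcripts begin. Each is the 200 bases upstream of the RefSeq start (GRCm38.p6), read 5′ to 3′ on the strand of the gene, and capitals mark GC boxes (GGGCGG, on either strand) and CCAAT boxes (CCAAT, on either strand). The table does not place the strain variants, so the reference bases are printed and no letter was assigned to CAST or S129. The region ends at the start of the record for Mapk8ip3 and Map3k10, 77 bases before it for Camkk2, 247 bases before it for Camk1d and 20 bases past it for Mapk13.
Camk1d, chr2:5714763-5714962, minus strand: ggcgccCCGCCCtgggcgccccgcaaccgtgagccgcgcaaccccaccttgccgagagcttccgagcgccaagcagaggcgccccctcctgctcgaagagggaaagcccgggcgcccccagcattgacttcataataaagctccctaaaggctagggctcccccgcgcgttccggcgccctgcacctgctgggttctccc
Camkk2, chr5:122779411-122779610, minus strand: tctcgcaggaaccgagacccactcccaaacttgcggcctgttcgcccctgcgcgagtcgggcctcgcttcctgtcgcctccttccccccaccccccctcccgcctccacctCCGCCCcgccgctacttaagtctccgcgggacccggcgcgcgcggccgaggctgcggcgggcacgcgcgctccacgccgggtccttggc
Mapk13, chr17:28769117-28769316, plus strand: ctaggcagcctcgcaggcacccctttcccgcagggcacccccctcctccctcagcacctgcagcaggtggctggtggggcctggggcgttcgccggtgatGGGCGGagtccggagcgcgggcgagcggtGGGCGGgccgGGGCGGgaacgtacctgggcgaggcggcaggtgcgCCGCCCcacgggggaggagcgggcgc
Mapk8ip3, chr17:24936978-24937177, minus strand: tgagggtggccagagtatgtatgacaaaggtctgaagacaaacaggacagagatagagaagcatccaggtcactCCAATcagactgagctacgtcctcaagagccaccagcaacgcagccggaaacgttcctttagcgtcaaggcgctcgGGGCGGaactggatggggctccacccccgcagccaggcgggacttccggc
Map3k10, chr7:27674582-27674781, minus strand: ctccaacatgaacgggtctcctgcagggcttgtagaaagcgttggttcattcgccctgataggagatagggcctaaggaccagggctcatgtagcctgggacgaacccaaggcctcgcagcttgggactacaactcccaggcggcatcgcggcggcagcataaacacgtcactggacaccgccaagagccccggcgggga
RefSeq promoters were matched for 48 of the 63 member genes, with 61 promoters in all. A GC box was present in 4 of the 5 regions shown, with 4 matches in Mapk13 and none in Map3k10. Among all member promoters 63.9% held a GC box, against 31.1% of 32843 mouse promoters, and 3.28% held the letters TATAAA, against 9.96%. CCAAT was found in 24.6% of member promoters and 29.4% of all promoters. The cyclic AMP response element TGACGTCA was found in 1.64% of member promoters and 1.47% of all promoters. The AP-1 site TGACTCA was found in 0 of the 61 member promoters and 3.66% of all promoters. The 5 regions shown ranged in GC content from 58.5% (Mapk8ip3) to 78.0% (Mapk13), with 11 to 28 CpG dinucleotides.

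Most of the cascade was expressed in these cells at low to middle levels. Of the 62 protein-coding member genes, 48 (77.4%) were expressed in at least 1 record, against 54.1% of all protein-coding genes in the table. The median TPM of expressed protein-coding records was 4.65 for the members and 6.70 for all genes. Member genes were also longer, with a median record length of 22164 bp against 16673 bp, and their TPM over exons was lower relative to that over exons and introns (median ratio 0.816 against 0.928).

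**Figure D1:**
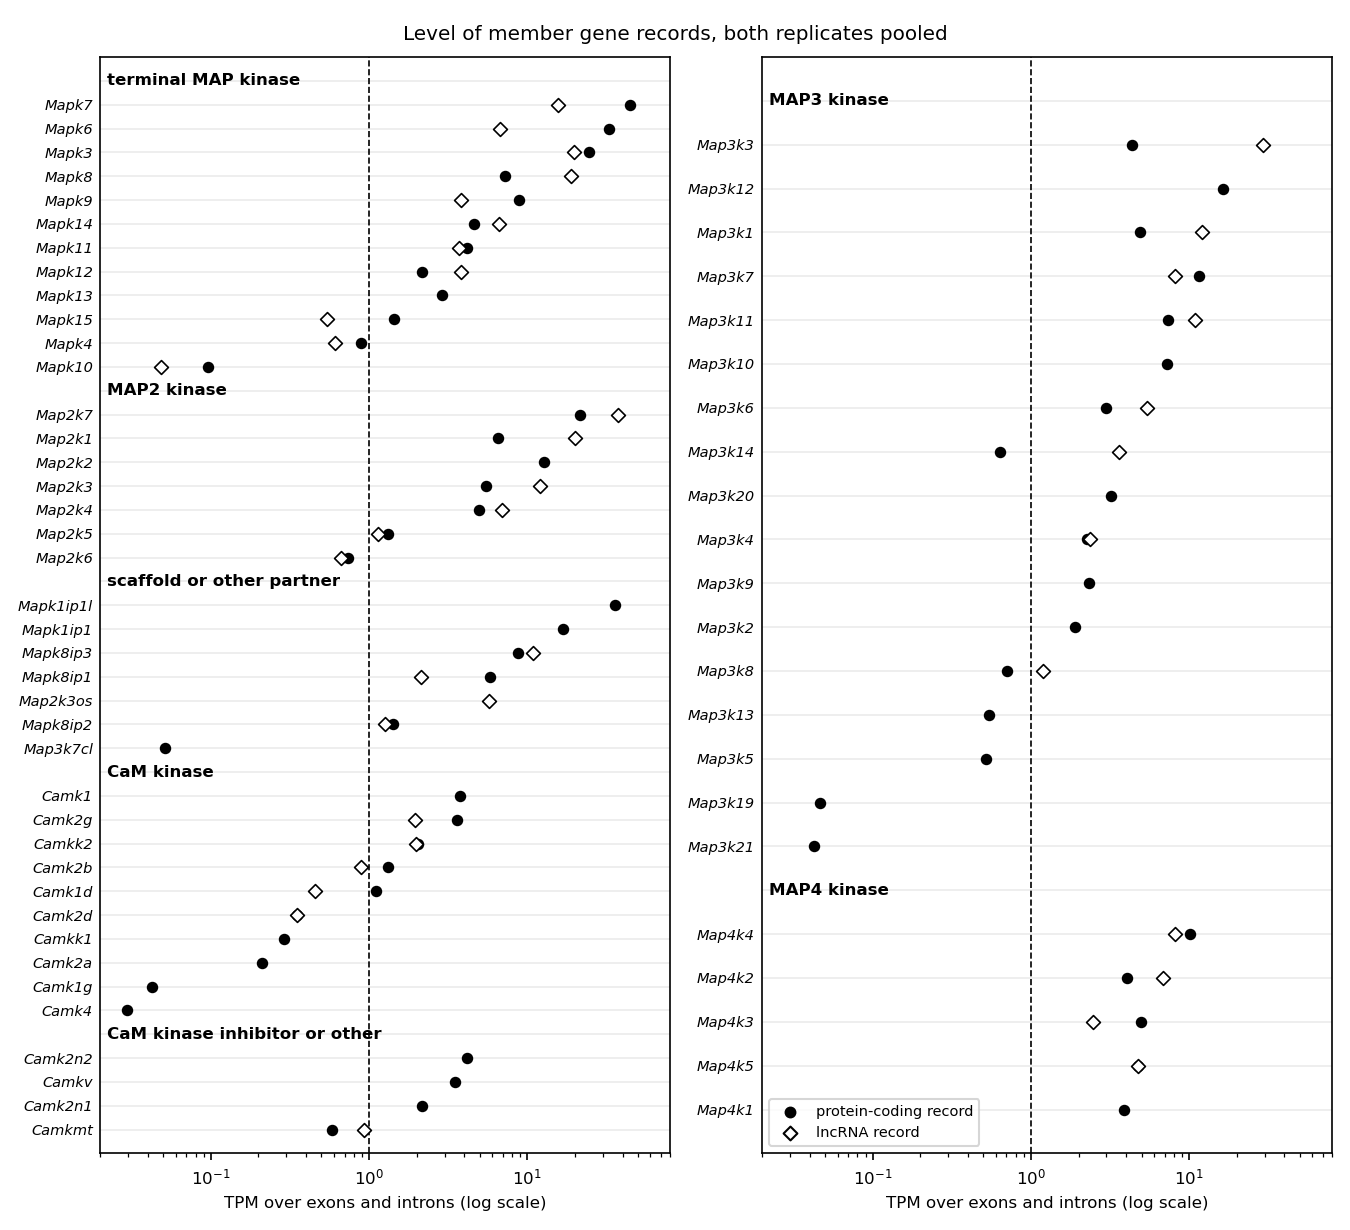
TPM over exons and introns (log scale) of the member records reported here, by kinase tier, with protein-coding records as filled circles, lncRNA records as open diamonds and a dashed line at a TPM of 1. The highest record was Mapk7 at 44.5 TPM and the lowest gene was Camk4 at 0.029 TPM; the values pool both replicates and have no error bars.

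Among the ERK kinases, Mapk7, which encodes ERK5, had the highest level of all members over exons and introns. It was at 44.5 TPM in its protein-coding record, above 96.1% of the records in the table, and at 15.5 TPM in its lncRNA record. Mapk6, which encodes the atypical kinase ERK3, followed at 32.9 TPM. Over exons alone the order was turned, with Mapk6 at 37.0 TPM and Mapk7 at 33.4 TPM. Mapk3 (ERK1) was at 24.6 TPM in its protein-coding record and at 19.6 TPM in its lncRNA record. Mapk15 (ERK7/8) was at 1.43 TPM, and Mapk4 (ERK4), at 0.88 TPM, did not reach the threshold. These values are per length, but the replicates are pooled, so it could not be tested which neighbours in this order differ.

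In the JNK group, Mapk9 (JNK2) was at 8.91 TPM and Mapk8 (JNK1) at 7.23 TPM in their protein-coding records. In the lncRNA records the order was turned, with Mapk8 at 18.8 TPM and Mapk9 at 3.83 TPM, while Mapk10 (JNK3), known for its expression in the nervous system, was at 0.096 TPM. All 4 p38 genes were expressed, at 4.57 TPM for Mapk14 (p38α), 4.13 TPM for Mapk11 (p38β), 2.15 TPM for Mapk12 (p38γ) and 2.90 TPM for Mapk13 (p38δ) in the protein-coding records. In these protein-coding records the p38 group thus spanned a narrower range than the ERK or JNK groups. Over exons alone Mapk11 was the highest of the p38 records at 4.61 TPM, and Mapk14 was at 2.13 TPM.

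Of the 7 MAP2 kinases, 6 were expressed. Map2k7, which activates JNK, was the highest in its protein-coding record at 21.6 TPM, and Map2k4, the other JNK activator, was at 4.99 TPM. The ERK activators Map2k2 (MEK2) and Map2k1 (MEK1) were at 12.7 and 6.53 TPM. Map2k3, which activates p38, was at 5.49 TPM, and Map2k6, also a p38 activator, was below the threshold at 0.74 TPM. Map2k5 (MEK5), the activator of ERK5, was at 1.32 TPM over exons and introns and at 0.30 TPM over exons alone. Its record spans 214134 bp, against 1479 bp for that of its substrate Mapk7, so the levels of these 2 records are not directly comparable. The lncRNA records of Map2k7, Map2k1 and Map2k3 were higher than their protein-coding records, at 37.4, 20.04 and 12.1 TPM.

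Of the 17 MAP3 kinases, 13 were expressed, led in their protein-coding records by Map3k12 (DLK) at 16.3 TPM and Map3k7 (TAK1) at 11.5 TPM. Map3k3 (MEKK3) was at 4.35 TPM in its protein-coding record and at 29.3 TPM in its lncRNA record, a transcript of 2076 bp inside the longer one. Map3k1 (MEKK1) was at 4.92 TPM in its protein-coding record, which had 616 CAST and 641 S129 reads (49.0% CAST), and at 12.0 TPM in its lncRNA record, which had no allelic reads. Map3k8 was expressed by its lncRNA record alone, at 1.18 TPM against 0.70 TPM in the protein-coding record. Map3k5, Map3k13, Map3k19 and Map3k21 were not expressed (0.043 to 0.55 TPM). All 5 MAP4 kinases were expressed, from Map4k1 at 3.87 TPM to Map4k4 at 10.1 TPM. Among the genes that the symbol rule also takes in, Mapk1ip1l was at 35.8 TPM, with 791 CAST and 558 S129 reads (58.6% CAST) and 73.2% of its variants non-reference on S129, and Mapk1ip1 was at 16.9 TPM. Gm49189, on the opposite strand inside Mapk1ip1l, had 139 CAST and 59 S129 reads, and its part in the Mapk1ip1l reads was not tested.

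The CaM kinases were the lowest group, with 5 of 10 genes expressed and none at 10 TPM. Camk1 was at 3.74 TPM and Camk2g, the highest of the CaMKII genes, at 3.62 TPM. Camkk2 was at 2.05 TPM, Camk2b at 1.32 TPM and Camk1d at 1.11 TPM, the last being the expressed member with the lowest level. Over exons alone Camk2b (0.89 TPM) and Camk1d (0.21 TPM) were below the threshold. Camk2d (0.35 TPM), Camkk1 (0.29 TPM), Camk2a (0.21 TPM), Camk1g (0.042 TPM) and Camk4 (0.029 TPM) were not expressed. The CaMKII inhibitors Camk2n2 and Camk2n1 were at 4.18 and 2.16 TPM, and Camkv, a kinase-like protein without known kinase activity, was at 3.51 TPM.

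Across the 65 tested records, reads of both alleles were close to equal in most cases. In 49 records (75.4%) the CAST share lay between 40% and 60%, as in 67.4% of all tested records. The median absolute log2 fold change was 0.33 for the members and 0.36 for all tested records, and the median CAST share was 51.9% against 50.1%. More CAST than S129 reads were found in 39 records and more S129 than CAST reads in 26, while CAST reads were more in 50.4% of all tested records. Summed over the records with reads, the members held 33486 CAST and 29245 S129 reads, or 53.4% CAST, against 50.4% for the table. The Camk1d record alone gave 4419 of these CAST reads and 645 of the S129 reads.

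**Figure D2:**
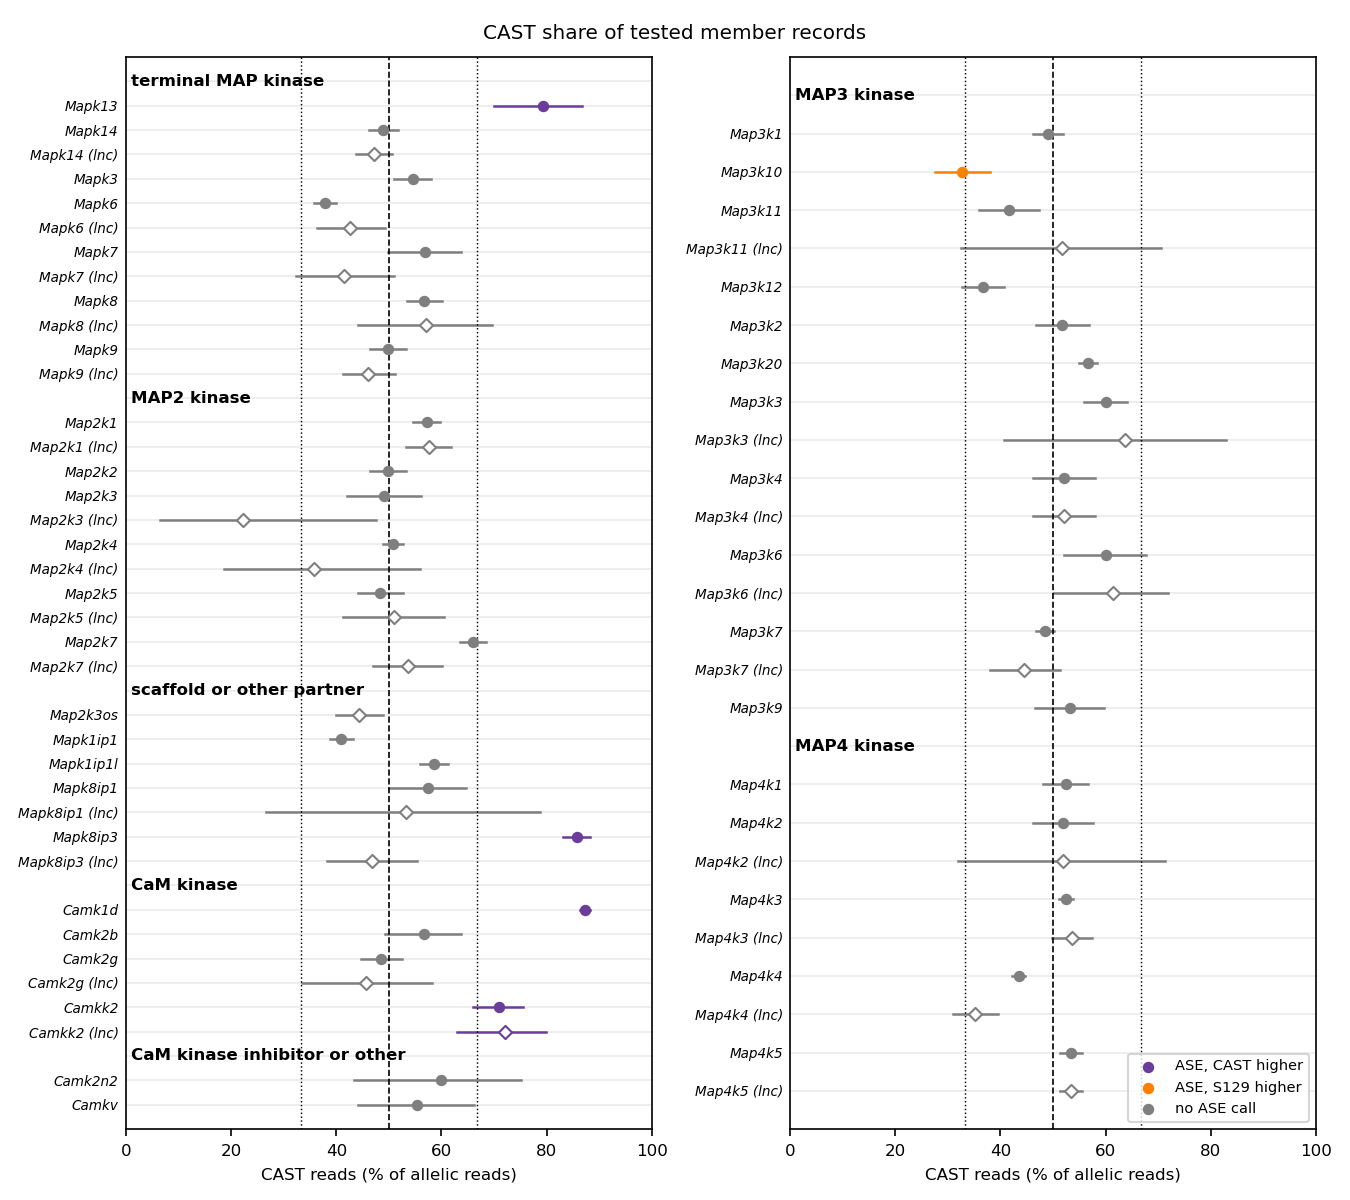
CAST share of the allelic reads (%) of the tested member records reported here, by kinase tier, with bars for the 95% Clopper-Pearson interval, filled circles for protein-coding and open diamonds for lncRNA records, a dashed line at equal shares and dotted lines at a 2-fold difference. Most records lie between 40% and 60%, 5 purple records are ASE with CAST higher and 1 orange record, Map3k10, is ASE with S129 higher.

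Camk1d encodes CaMK1δ, a calcium-responsive kinase that is activated by CaMKK. Its protein-coding record (chromosome 2, 5293457 to 5714515, mm10, minus strand) had 4419 CAST and 645 S129 reads, or 87.3% CAST (86.3% to 88.2%). The log2 fold change was 2.78 (SE 0.06), the largest among the members, and CAST was 6.85-fold higher. The reads came from 74 variants, 29 in exons and 45 in introns, none of them with the non-reference base on S129.

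The level of Camk1d was low, at 1.11 TPM over exons and introns and 0.21 TPM over exons alone, and with the threshold set on exons the record was not expressed and had no ASE call. Its allelic depth was 68.4 reads per variant. Of 744 other tested protein-coding records with a TPM from 1 to 1.5, a comparison chosen after these values were seen, 7 had at least as many reads per variant, and their median was 15.7. The lncRNA record of Camk1d, which begins at nearly the same start and covers the first 149017 bp, was not expressed at 0.46 TPM. It had 5 CAST and 22 S129 reads at 2 variants (log2 fold change −2.14, exact adjusted p = 0.0043), the opposite direction to the protein-coding record. The other 72 variants of the protein-coding record held 4414 CAST and 623 S129 reads. A processed pseudogene, Gm13216, lies inside Camk1d on the opposite strand; its part in the reads was not tested.

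Camkk2 encodes the kinase that activates CaMK1, CaMK4 and AMPK. Its protein-coding record (chromosome 5, 122733188 to 122779333, minus strand) had 263 CAST and 108 S129 reads at 19 variants, or 70.9% CAST (66.0% to 75.5%). The log2 fold change was 1.28 (SE 0.17), with an adjusted p of 4.51e-15 in the exact binomial test. The lncRNA record, which starts 2 bp from it, gave 85 CAST and 33 S129 reads at 2 variants (log2 fold change 1.36, SE 0.30), so both records had ASE toward the same allele. The 3 tested records of the other CaM kinases, 1 of Camk2b and 2 of Camk2g, and those of Camk2n2 and Camkv had no ASE and lay between 45.6% and 60% CAST. Camk2b had 107 CAST and 82 S129 reads (56.6% CAST) and Camk2g had 315 CAST and 334 S129 reads (48.5% CAST) in their protein-coding records.

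Mapk13, the gene of p38δ, had 80 CAST and 21 S129 reads at 4 variants, or 79.2% CAST (70.0% to 86.6%), in its only record (chromosome 17, 28769297 to 28780233, plus strand). The log2 fold change was 1.93 (SE 0.35), with an adjusted p of 1.61e-08 in the exact binomial test. Mapk14, the gene of p38α, lies 22.9 kb away on the same chromosome and had 648 CAST and 677 S129 reads, or 48.9% CAST. The difference between these p38 neighbours was 30.3 percentage points, with an adjusted p of 1.07e-08 in a two-sided Fisher's exact test adjusted over 6 pairs. The remaining p38 genes, Mapk11 and Mapk12, had no counted variant and could not be tested.

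Mapk8ip3 encodes JIP3, a scaffold of the JNK pathway that also links cargo to motor proteins in axons. Its protein-coding record (chromosome 17, 24897506 to 24936977, minus strand) had 625 CAST and 103 S129 reads at 21 variants, or 85.9% CAST (83.1% to 88.3%). The log2 fold change was 2.60 (SE 0.15), with an adjusted p of 3.45e-90 in the exact binomial test. Its lncRNA record, which lies inside the protein-coding one and was at 10.9 TPM against 8.71 TPM, had 65 CAST and 74 S129 reads, or 46.8% CAST. Subtracting that inner record, the remaining 12 variants held 560 CAST and 29 S129 reads, or 95.1% CAST (log2 fold change 4.27). The 2 records of the gene thus differed in call, and the imbalance of the longer record lay outside the shorter one. Of the other members named Mapk8ip, only Mapk8ip1 (JIP1) could be tested, with 108 CAST and 80 S129 reads (57.4% CAST, exact adjusted p = 0.095).

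Map3k10, the gene of the mixed lineage kinase MLK2, an activator of the JNK branch, was the member with ASE toward S129. It had 107 CAST and 221 S129 reads at 21 variants, or 32.6% CAST (27.6% to 38%), in its only record (chromosome 7, 27668148 to 27674581, minus strand). The log2 fold change was −1.05 (SE 0.17), just past the 2-fold threshold, with an adjusted p of 1.87e-09 in the exact binomial test. Its relatives Map3k9 (MLK1) and Map3k11 (MLK3) had CAST shares of 53.2% of 235 reads and 41.6% of 296 reads.

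**Figure D3:**
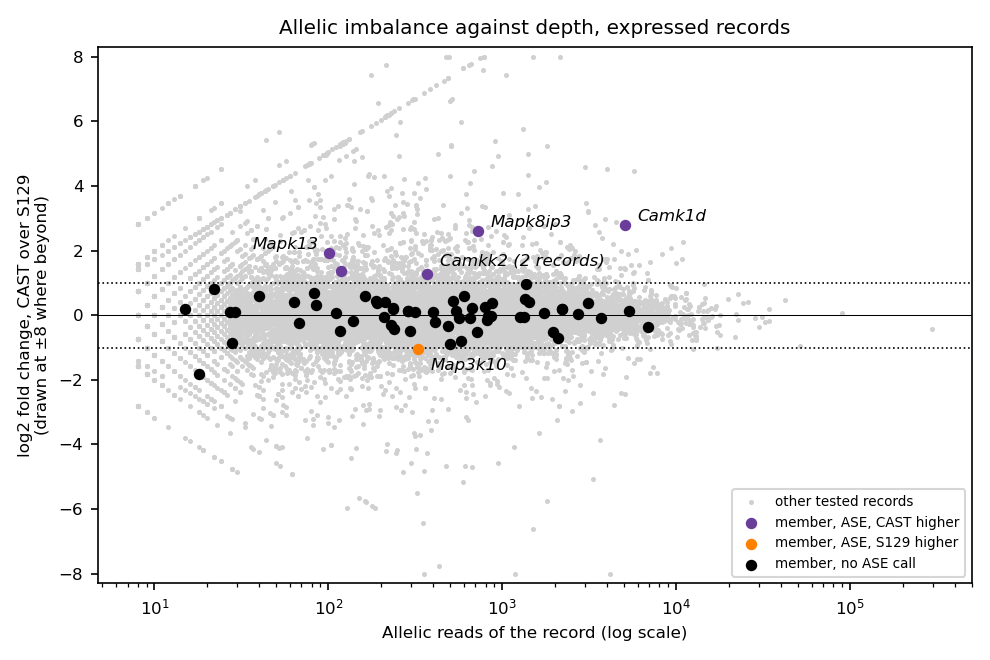
Log2 fold change (CAST over S129) against allelic reads (log scale) of all expressed records with reads, with members in black, purple (ASE, CAST higher) or orange (ASE, S129 higher), other records in grey and dotted lines at a 2-fold difference. Camk1d combines the largest fold change among the members (2.78) with 5064 reads, and the member at −1.81 without a call, the lncRNA record of Map2k3, had 18 reads.

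A lower threshold of 1.5-fold with an adjusted p of at most 0.05 was passed by 12 of 65 member records (18.5%), against 25.8% of all tested records. CAST was higher in 8 of them (12.3% against 14.4%) and S129 in 4 (6.15% against 11.4%). The 6 records that were added to the ASE records belonged to Map2k7, Map3k3, Map3k6, Mapk6, Map3k12 and Map4k4. An adjusted p of at most 0.05 at any fold was found in 26 of 65 records, against 48.3% of all tested records.

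Map2k7, the JNK activator, came closest to the 2-fold threshold from below, with 903 CAST and 465 S129 reads (66.0% CAST, log2 fold change 0.96, SE 0.08) in its protein-coding record. Its lncRNA record at the end of the gene had 126 CAST and 109 S129 reads (53.6% CAST). In the protein-coding record 44.4% of the variants had the non-reference base on S129, against 9.49% over all member variants and 11.1% over the table. Map3k3 had 359 CAST against 239 S129 reads (log2 fold change 0.59), and Map3k6 (ASK2) had 98 CAST against 65 S129 reads (log2 fold change 0.59, exact adjusted p = 0.027), with 66.7% of its 9 variants non-reference on S129.

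Mapk6, the gene of ERK3, was higher on S129, with 792 CAST and 1300 S129 reads (37.9% CAST, log2 fold change −0.71, SE 0.07). Its lncRNA record had 102 CAST and 137 S129 reads (42.7% CAST, exact adjusted p = 0.058). Map3k12, the gene of DLK, which acts upstream of JNK in neurons, had 213 CAST and 368 S129 reads (36.7% CAST, log2 fold change −0.79). Pcbp2, a gene on the opposite strand that overlaps Map3k12, had 707 CAST and 641 S129 reads. Map4k4, a MAP4 kinase upstream of JNK, had 175 CAST against 323 S129 reads in its lncRNA record (log2 fold change −0.88) and 2976 CAST and 3875 S129 reads in the protein-coding record around it (43.4% CAST, log2 fold change −0.38).

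In the ERK1 and ERK5 branches no record of Mapk3, Mapk7, Map2k1, Map2k2 or Map2k5 reached a 1.5-fold difference with an adjusted p of at most 0.05. Mapk3 (ERK1) had 435 CAST and 363 S129 reads (54.5% CAST, exact adjusted p = 0.027). Map2k1 (MEK1) had 817 CAST and 612 S129 reads (57.2% CAST) and Map2k2 (MEK2) had 430 CAST and 434 S129 reads (49.8% CAST). Mapk7 (ERK5) had 120 CAST against 91 S129 reads (56.9% CAST) in its protein-coding record and 48 CAST against 68 S129 reads (41.4% CAST, exact adjusted p = 0.14) in its lncRNA record, and Map2k5 (MEK5) had 271 CAST and 289 S129 reads. For none of these 5 genes did the CAST share of the protein-coding record lie outside 40% to 60%.

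The JNK genes gave 494 CAST and 377 S129 reads for Mapk8 (56.7% CAST) and 411 CAST and 414 S129 reads for Mapk9 (49.8% CAST) in the protein-coding records. The JNK activator Map2k4 had 1384 CAST and 1337 S129 reads (50.9% CAST). Map2k3, the p38 activator, had 102 CAST and 106 S129 reads (49.0% CAST). Among the remaining MAP3 kinases, Map3k7 (TAK1) had 1780 CAST and 1893 S129 reads (48.5% CAST), and Map3k20 (ZAK) had 1762 CAST and 1348 S129 reads (56.7% CAST). Map4k3 and Map4k5, with 5346 and 2200 reads in their protein-coding records, were at 52.5% and 53.4% CAST.

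**Figure D4:**
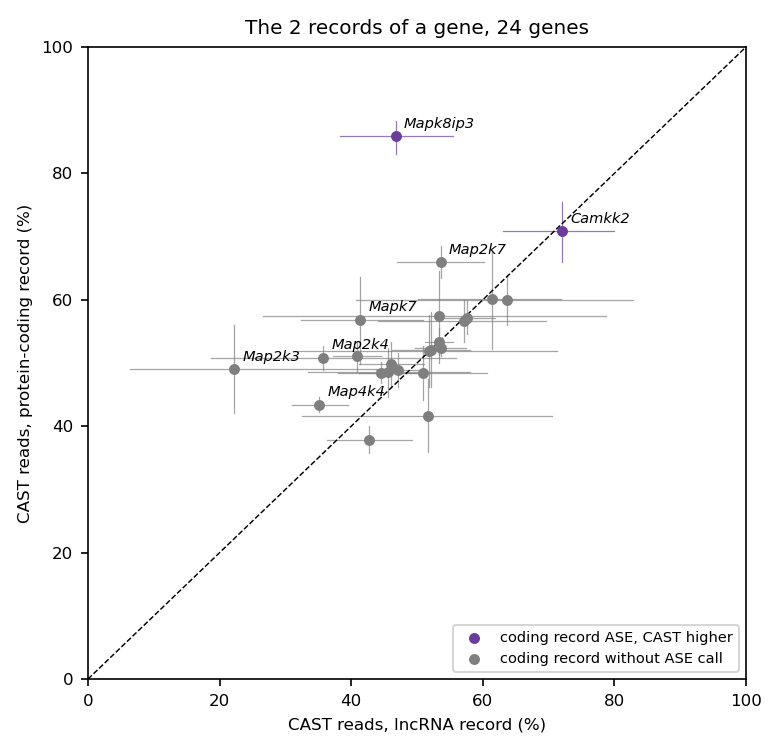
CAST share (%) of the protein-coding record (vertical axis) against that of the lncRNA record (horizontal axis) for the 24 member genes with both records expressed and read, with 95% Clopper-Pearson intervals and a dashed line of equal shares. Mapk8ip3 stands off the line at 85.9% and 46.8%, while Camkk2 lies on it at 70.9% and 72.0%.

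Both records had allelic reads in 30 member genes. The CAST share of the protein-coding record was within 10 percentage points of that of the lncRNA record in 21 genes, and 3 of these (Camk2d, Map3k4 and Map4k5) had the same reads in both records, so the records are not independent. Apart from Camk1d and Mapk8ip3, the widest gap was in Map2k3, with 49.0% CAST in the protein-coding record and 22.2% in the lncRNA record, which rested on 4 CAST and 14 S129 reads (exact adjusted p = 0.064). The lncRNA record had the higher TPM in 20 of the 39 genes with both.

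Genes around the ASE members were compared to see whether the imbalance was shared along the chromosome. Within 500 kb of Mapk8ip3, 21 of 53 tested records (39.6%) had ASE toward CAST and 2 (3.77%) toward S129, against 8.33% and 5.78% of all tested records, with a median log2 fold change of 0.62. The 21 records belonged to 17 genes, since 4 genes were called in both of their records, and the records of 2 of these, Slc9a3r2 and Igfals, had the same number of reads and the same fold change. There, 31.0% of the neighbours' variants had the non-reference base on S129, against 23.8% in the protein-coding record of Mapk8ip3 and 11.1% over the table. The neighbours with CAST higher included Spsb3 (log2 fold change 2.52), Mrps34 (2.73) and Tsc2 (1.15), and those with S129 higher were Jpt2 (−1.28) and Rps2 (−1.89), all in their protein-coding records. The lncRNA record of Jpt2 was higher on CAST instead (log2 fold change 1.64, 33 reads).

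Around Camk1d 3 of 14 tested records (21.4%) had ASE toward CAST and 0 toward S129, and the median log2 fold change was 0.13. Of these 3, 2 were the records of 1 gene, Gm13199, each with 233 reads at the same fold change. Around Camkk2 the counts were 3 and 2 of 33 (median 0.06), with Kdm2b at a log2 fold change of 4.09 in its protein-coding record. The lncRNA record of Kdm2b had no call (log2 fold change 0.22, 13 reads). Around Mapk13 they were 1 and 1 of 26 (median 0.19). Around Map3k10 they were 2 and 4 of 40, with a median within 0.01 of equality, but 2 of the 4, Gm44684 (14 CAST and 65 S129 reads) and Zfp607b (log2 fold change −3.25), started within 20 kb upstream of Map3k10. Gm38973, which started 23.6 kb downstream, was higher on CAST (log2 fold change 4.29, 103 reads). Around Map2k7, below the ASE threshold, 0 of 11 tested records had ASE (median 0.34) and 48.2% of the neighbours' variants were non-reference on S129. Around Map3k6, also below the threshold, the counts were 7 and 1 of 30 (median 0.35), with 29.6% of the neighbours' variants non-reference on S129. Members without ASE also had ASE neighbours. The counts toward CAST and S129 were 8 and 2 of 39 around Map4k1 and 6 and 1 of 42 around Camkv. They were 3 and 9 of 56 around Mapk3, and lower around Map2k2, at 4 and 0 of 61. Whether the neighbours of ASE members differ from those of other members was not tested.

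**Figure D5:**
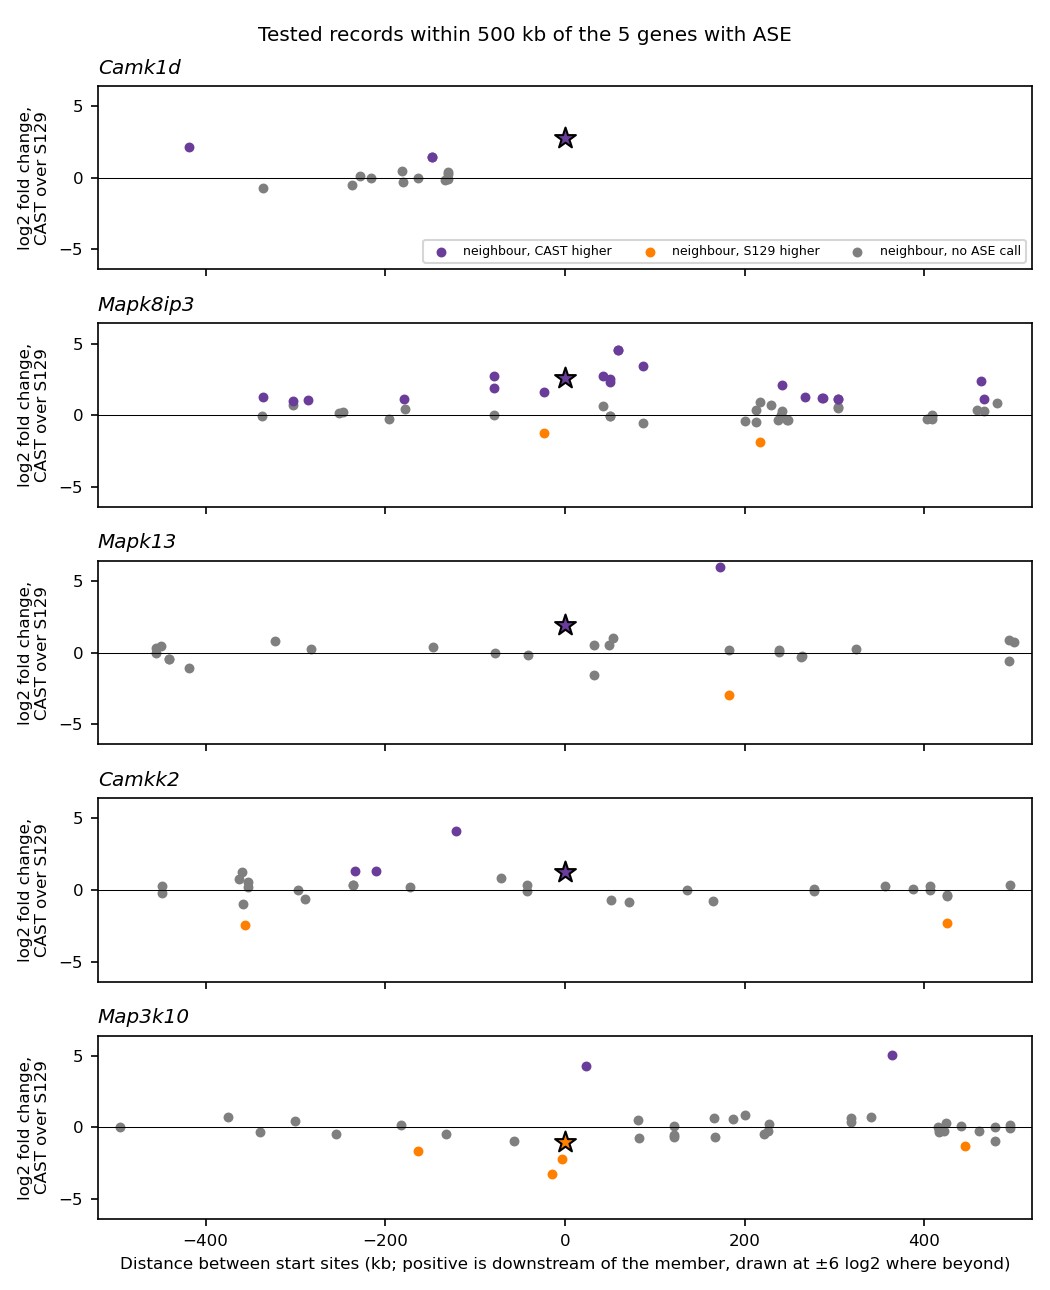
Log2 fold change (CAST over S129) of tested records against the distance of their start site (kb) from that of the ASE member at 0 (star), with purple for ASE toward CAST, orange for ASE toward S129 and grey for no call. Records with ASE toward CAST make up 21 of 53 around Mapk8ip3, 3 of 14 around Camk1d, 1 of 26 around Mapk13, 3 of 33 around Camkk2 and 2 of 40 around Map3k10, against 8.33% of all tested records.

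Member genes within 1 Mb of each other were set side by side in 6 pairs, and 4 pairs differed in CAST share at an adjusted p of at most 0.05 (two-sided Fisher's exact tests of the reads of the protein-coding records, or of the lncRNA record of Map2k3os). Besides Mapk13 and Mapk14, Map2k1 and Map2k5 differed by 8.78 percentage points (57.2% and 48.4% CAST, exact adjusted p = 0.0014), Mapk7 and Map2k3os by 12.5 (56.9% and 44.4%, exact adjusted p = 0.0059; the lncRNA record of Mapk7, not used in the pair, was at 41.4%), and Map3k11 and Map4k2 by −10.4 (41.6% and 51.9%, exact adjusted p = 0.018). With the depth of each gene reduced for a correlation of 0.01 between its reads, 1 of the 6 pairs, Mapk13 and Mapk14, still passed. Map2k3 and Map2k3os, which start 166 bp apart on opposite strands, had 49.0% and 44.4% CAST (exact adjusted p = 0.28), and Mapk7 and Map2k3 had 56.9% and 49.0% CAST (exact adjusted p = 0.14). Mapk1ip1 and Ppp2r2d, which start 322 bp apart on opposite strands and overlap, had 800 CAST and 1155 S129 reads, and 1430 CAST and 1944 S129 reads.

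Depth and variants limited what could be seen. A tested member record held 15 to 6851 allelic reads with a median of 412, against 397 over all tested records, at a median of 17 variants. An exact 2-fold split passed the test from 52 reads, which 7 member records did not reach, and a 1.5-fold split from 136 reads, which 15 did not reach. Of the 48 expressed protein-coding member genes, 7 (14.6%) had no allelic reads in any record, against 6.11% of all expressed protein-coding genes. These were Camk1, Camk2n1, Map3k8, Mapk11, Mapk12, Mapk15 and Mapk8ip2, of which 4 lie on chromosome 15. Most expressed genes within 200 kb of each of the 7 did have counted variants, 7 of 13 around Mapk8ip2 being the lowest share. Variants were counted only at high mappability and a minimum coverage, so a gene without counted variants need not lack strain variants. An ASE state of these genes was therefore not measured. Of the 41 tested member genes, 9 were overlapped by a gene with allelic reads of its own, and how such reads were divided was not tested.

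The wider pathway was described by 5 lists of genes upstream, downstream and beside the members. In these lists 92 records of 68 genes were tested, and 8 (8.70%) had ASE, against 14.1% of all tested records. All 8 were toward CAST, a direction called in 8.33% of all tested records, and 0 were toward S129, against 5.78%. Of 24 records for input to the cascade from Ras, 2 had ASE: Grb2, an adaptor between receptors and Ras, with 40 CAST and 0 S129 reads at 1 variant (at least 13.3-fold, taking 3 reads as the limit over the pooled replicates), and Spry2, an inhibitor of receptor signaling to ERK, with 592 CAST against 198 S129 reads (log2 fold change 1.58). Of 13 records for adaptors and scaffolds, 2 had ASE. These were Pebp1, which encodes a phosphatidylethanolamine-binding protein, with 126 CAST and 0 S129 reads at 3 variants (at least 42.0-fold), and Mapkbp1, a JNK-binding protein, with 247 CAST against 22 S129 reads (log2 fold change 3.49).

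The list of kinases under other names, in the cascade's tiers or directly below them, had 1 ASE record in 21, that of Mapkapk2, a kinase below p38, with 992 CAST against 313 S129 reads (log2 fold change 1.66). The MAP kinase phosphatases had 1 in 12, Dusp14, with 132 CAST against 32 S129 reads (log2 fold change 2.04). In the list of calmodulin, its phosphatases and CaM kinase partners 2 of 22 records had ASE, both of Calm3, which encodes calmodulin. Its protein-coding record had 3012 CAST against 1448 S129 reads (log2 fold change 1.06) and its lncRNA record 972 CAST against 353 S129 reads (log2 fold change 1.46). Calmodulin is encoded by 3 genes with the same protein product, so this value describes 1 of its transcripts only. The median absolute log2 fold change of the 5 lists together was 0.30, beside 0.33 for the members and 0.36 for all tested records.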

How the data were processed

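Total RNA of F123 mESCs (2 biological replicates, 1 µg each, stranded libraries, read pairs of 75 bases) was aligned by the authors to mm10 with STAR (version 2.7.2c), duplicate reads were removed with Picard, and allelic reads were counted at strain variants with GATK. The deposited counts are whole reads per allele, summed over the variants of a record and over both replicates by the authors. By the methods only variants of high mappability and a minimum coverage were kept, so numbers and shares of variants refer to these. The deposited TPM values were made by the authors from HTSeq counts over exons and introns, or exons alone, scaled by length and library size. The table also holds the authors' own comparisons, namely allelic fractions, binomial p-values and log2 fold changes with a class per record, and these deposited columns were not used.

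From the counts, two-sided exact binomial tests with Benjamini-Hochberg adjustment over 18632 records were computed, with Fisher's exact tests for pairs of neighbours. Both were run in Python (version 3.11.15) with scipy (1.17.1). The calls were also run on simulated reads with 4-fold changes and counting error only, which does not cover a wider spread or smaller changes. Where an allele had 0 reads, 3 reads set the bound. Allelic reads of all records sum to 8230836 CAST and 8112857 S129, the only depth used here. Named genes were members past the ASE or 1.5-fold threshold, the 15 highest, the lowest expressed, the terminal kinases, MAP2 kinases and CaM kinases, neighbouring pairs, members whose records differed in call, and ASE genes of the pathway lists; other members were named after their values were seen. The results of 1 member are not reported here by name and stand in counts over members only. Members and lists were chosen with earlier results of these data known. Alternatives changed the null share, the spread, depth, TPM, fold and p thresholds, added reads, the record classes and the variant minimum.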

Additional observations from a re-analysis of the deposited data

How the results depend on the processing

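No paired analysis was possible because the deposited table sums both replicates, and for the same reason no replicate could be left out. The 6 ASE records of the members remained 5 to 8 under 11 of 14 alternatives. The 8 were reached without a TPM minimum, with 5 toward CAST and 3 toward S129. The count was 2 with a beta-binomial spread of 0.05 (Camk1d and Mapk8ip3; adjusted p from 0.22 to 0.91 for the others), 2 at a TPM of at least 5 (Mapk8ip3 and Map3k10) and 12 at a 1.5-fold threshold. Among these, Camk1d lost its call with TPM taken over exons, an alternative chosen after seeing the data, and Mapk8ip3 kept its call in all 14 alternatives. None of the 6 ASE records changed direction. Only adding reads or subtracting the reads of an inner lncRNA record altered a fold change, so the other alternatives could not turn a direction. The 8 ASE records of the pathway lists became 3, 4 and 15 under those 3 alternatives, and 7 to 9 under the other 9. Of the 6 pairs, 4 differed, and 1 did at the effective depth for a correlation of 0.01 and 1 among genes within 200 kb, where fewer pairs were tested. The 49 expressed genes were 46 by protein-coding records, 45 by TPM over exons (added after seeing the data) and 26 at a TPM of at least 5. Over all tested records the ASE calls fell to 487 with the spread of 0.05, against 2249. Without replicate values the spread to assume was not measured.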
